A study of Mus musculus with 8 samples.

Results

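Zfp symbols name a large set of zinc finger genes in the mouse, and 274 of them were counted well enough in sham-operated Kupffer cells to be followed here. A transcript was taken as a member when its symbol was Zfp followed by digits only and it had at least 50 raw counts in each of the 4 Sham libraries. Zfp36, an RNA-binding protein with another kind of finger, was left out. The table of 55414 genes held 374 symbols of this form. Of these, 274 were members, 99 were under the count minimum and the last was Zfp36. Since the minimum reads the Sham counts only, it favours transcripts that are higher in Sham, and the members were thus selected on measured Sham counts. Their counts by direction are given as a description from which nothing is inferred.

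One set of libraries came from Kupffer cells, which are macrophages resident in the liver, sorted by flow cytometry 2 h after caecal ligation and puncture (CLP), a surgical model of abdominal sepsis. The controls were Kupffer cells sorted at the same time after a sham operation (Sham). All mice were WT C57BL/6J, the surgery was the only labelled difference, and each group had 4 libraries of total RNA. The labels do not say whether each library came from its own mouse, so that p-values reflect only how these libraries vary, which may be technical. The study's title sets the question in sepsis-induced hemolysis.

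Most Zfp proteins carry tandem C2H2 fingers, in which a pair of cysteines and a pair of histidines hold a zinc ion so that each finger can read a few bases of DNA. Many also carry a KRAB box, which recruits the corepressor TRIM28 (Trim28) and, through it, the histone methyltransferase SETDB1 (Setdb1) to silence transposons and other chromatin. Others have no KRAB box and act as conventional activators, repressors or RNA-binding proteins. KRAB zinc finger genes lie in large clusters that arose by tandem duplication.

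Promoter windows of 4 members are printed first because they belong to the members with the most negative and the most positive log2 fold changes for which the RefSeq table (build GRCm38.p6) held a single window. Each runs from 250 bases before to 50 bases after the annotated start, 5′ to 3′ on the strand of the gene. Zfp108 and Zfp128 were lower in CLP, and Zfp811 and Zfp655 were higher. Capitals mark matches, on either strand, to 9 motifs, namely the Sp1 box GGGCGG, the ETS box CCGGAAG, the cAMP response element TGACGTCA, the AP-1 site TGAGTCA, the E-box CACGTG, the TATA box TATAAA, the NRF1 site, the NF-kB site, and an element of 14 letters known from binding of ZNF143 (Zfp143), which was added after these windows had been seen.
Zfp108, chr7:24254544-24254843, strand plus: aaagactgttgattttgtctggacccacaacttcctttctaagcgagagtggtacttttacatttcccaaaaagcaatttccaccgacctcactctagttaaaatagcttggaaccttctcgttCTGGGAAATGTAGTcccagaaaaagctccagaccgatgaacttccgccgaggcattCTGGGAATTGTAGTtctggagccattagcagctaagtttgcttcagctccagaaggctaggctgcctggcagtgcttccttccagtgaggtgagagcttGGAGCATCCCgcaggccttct
Zfp128, chr7:12880928-12881227, strand plus: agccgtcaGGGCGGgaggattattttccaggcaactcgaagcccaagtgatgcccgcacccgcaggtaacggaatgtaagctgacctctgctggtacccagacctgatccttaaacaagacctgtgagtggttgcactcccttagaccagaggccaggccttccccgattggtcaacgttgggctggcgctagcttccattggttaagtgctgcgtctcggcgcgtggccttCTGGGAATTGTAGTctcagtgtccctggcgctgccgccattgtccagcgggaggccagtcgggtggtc
Zfp811, chr17:32809882-32810181, strand minus: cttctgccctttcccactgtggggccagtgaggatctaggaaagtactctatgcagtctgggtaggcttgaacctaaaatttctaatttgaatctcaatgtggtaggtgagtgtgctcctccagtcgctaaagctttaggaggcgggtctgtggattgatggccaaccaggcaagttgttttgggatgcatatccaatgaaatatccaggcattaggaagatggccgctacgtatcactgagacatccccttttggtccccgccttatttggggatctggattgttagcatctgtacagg
Zfp655, chr5:145231492-145231791, strand plus: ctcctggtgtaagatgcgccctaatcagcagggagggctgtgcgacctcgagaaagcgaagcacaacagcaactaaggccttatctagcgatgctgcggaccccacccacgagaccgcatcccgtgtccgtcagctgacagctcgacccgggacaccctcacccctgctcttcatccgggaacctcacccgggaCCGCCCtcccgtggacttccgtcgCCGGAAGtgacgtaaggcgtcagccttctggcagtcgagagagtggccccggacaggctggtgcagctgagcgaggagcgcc
The window of Zfp108 held 2 matches to the ZNF143-type element (the 2 runs of 14 capitals) and 1 to the NF-kB site, and that of Zfp128 held 1 match to the ZNF143-type element and 1 Sp1 box. The window of Zfp655 held 1 Sp1 box and 1 ETS box. None of the 9 motifs was found in the window of Zfp811.

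At 2 h after CLP, most Zfp members had lower TMM-scaled levels in Kupffer cells, while a small group led by Zfp703, Zfp811, Zfp655 and Zfp516 was several-fold higher. With edgeR's quasi-likelihood test at an adjusted p of 0.05, 188 of the 274 members were lower in CLP, 30 were higher and 56 were not called. Over all 14655 genes tested, 29.5% were called lower and 24.9% higher. Among the 11306 genes that met the same Sham count minimum, 33.2% were called lower and 25.1% higher. The median log2 fold change of the members was -0.85, which as a ratio of Sham over CLP per member is 1.80. The median was -0.04 over all genes tested and -0.09 over genes of the same minimum. The members ranged from -4.27 to 3.16 on this scale, with quartiles at -1.88 and -0.27.

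The 4 CLP libraries lay below all 4 Sham libraries in CPM (each library's counts scaled to a common total, with the trimmed mean of M-values, TMM) for 186 members, and above them for 26. In the other 62 members the groups overlapped. Over all genes tested, 27.3% lay entirely below and 22.1% entirely above. Calls with a fall of at least 2-fold covered 129 members (15.9% of all genes tested), and those of at least 4-fold covered 56 (4.25%). Calls with a rise of at least 2-fold covered 13 members (12.8% of all genes tested). The count minimum keeps every Sham mean above 1 CPM, so only CLP means could lie under it, and those of 40 members did. In bulk RNA, fewer cells that express a gene and less of its RNA per cell cannot be told apart.

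**Figure D1:**
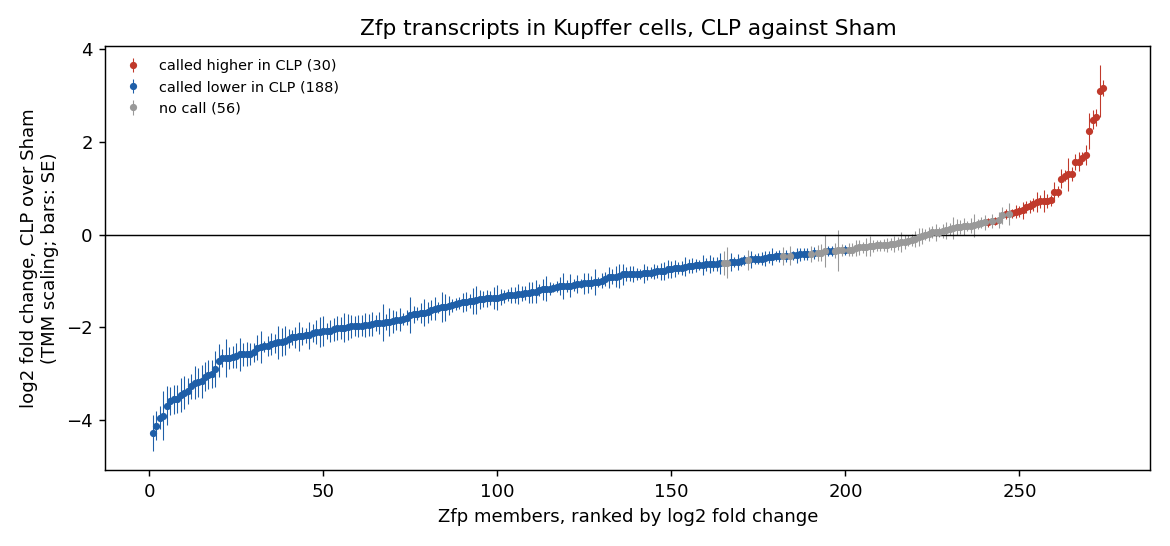
Log2 fold change, CLP over Sham, of the 274 Zfp members in rank order, with the SE of each as a bar; red points were called higher in CLP (30), blue points lower (188), and grey points were not called (56). The curve crosses 0 well to the right of its middle, and a few members at the right end exceed 2.

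The libraries held 23311897 to 28724875 counts over genes, but the TMM factors were 0.801 to 0.837 in CLP and 1.16 to 1.28 in Sham. Scaling by total counts moved the median log2 fold change of all genes to -0.60, and that of the members to -1.40, with 234 members called lower and 13 higher (56.6% and 11.7% of all genes tested). The member median minus that of all genes was -0.81 under either scaling. A change of scaling shifts all genes by nearly the same amount, so this difference could hardly change and nothing is read from it. All 188 members called lower under TMM were also called lower with total counts, which follows largely from the downward shift. Of the 30 called higher, 13 stayed so, and 44 of the 56 not called became lower. CLP replicate 1 was set off from its group on the second principal component (10.0% of the variance). On the first (76.7%), which separated the groups, it stood at -45.2 and thus nearer to Sham than the other CLP libraries did. Those lay at -82.3 to -78.2, and the Sham libraries at 59.4 to 82.9. Without CLP replicate 1, 189 members were called lower and 38 higher (33.1% and 28.0% of all genes then tested).

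The cell identity of the sorts was checked on marker genes. Summed CPM of 13 Kupffer cell markers, such as Clec4f, Vsig4 and Timd4, was 38353 to 49574 in CLP and 30097 to 38632 in Sham, with 4 of 13 called higher (C1qb, Folr2, Timd4 and Adgre1) and 0 lower. Neutrophil markers summed to 91.7 to 274 CPM in CLP, against 18.1 to 27.1 CPM in Sham, and 8 of 12 were tested, all 8 called higher. Platelet markers summed to 134 to 209 CPM in CLP and 18.7 to 31.5 CPM in Sham, with 6 of 6 tested called higher and 1 of 7 at 0 throughout each group. B cell markers gave 19.3 to 30.8 CPM in CLP and 8.58 to 13.9 CPM in Sham, with 5 of 6 called higher and 1 lower, and endothelial markers gave 2221 to 2756 CPM in CLP and 1542 to 1956 CPM in Sham, with 3 of 6 called higher. Of the hepatocyte markers 0 of 5 were called, at 2341 to 3176 CPM in CLP and 1645 to 2425 CPM in Sham. Stellate cell markers gave 34.4 to 51.6 CPM in CLP and 27.5 to 34.3 CPM in Sham, with 1 of 4 called higher. T cell markers gave 15.3 to 28.97 CPM in CLP and 10.3 to 21.2 CPM in Sham, with 0 called of the 1 tested. Most of the T cell sum was that gene, Cd4, at 14.75 to 27.7 CPM in CLP and 9.96 to 20.9 CPM in Sham. Most of the endothelial sum was Cdh5, at 1720 to 2217 CPM in CLP and 1075 to 1388 CPM in Sham, so the sum mainly follows that gene. Cdh5, Kdr and Clec4g were called higher, while Lyve1 (log2 fold change 0.12), Stab2 (-0.05) and Pecam1 (-0.37) were not called. The neutrophil gene Elane was at 0 in every CLP library and Camp and Ly6g were at 0 in every Sham library. The part of these cells in the Zfp values was not tested.

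The members that fell furthest were KRAB zinc finger genes of low abundance. Zfp108 had 0.166, 0.0524, 0.0916 and 0.146 CPM in CLP replicates 1 to 4, which are 4, 1, 2 and 3 counts, against 2.72, 1.74, 1.94 and 2.93 CPM in the Sham replicates, which are 89, 57, 58 and 96 counts. The groups were far apart, with a log2 fold change of -4.27 ± 0.39 (SE; edgeR adjusted p = 1.2e-05). Over 11.9% of its 50-base windows Zfp108 is identical to another gene, with Zfp93 as the closest, so part of its reads may be split between them. Zfp128 had 0.208, 0.157, 0.504 and 0.341 CPM in CLP and 5.62, 5.42, 4.93 and 5.35 CPM in Sham. Its 4 Sham values were close to each other and its sequence is shared with no other gene, with a log2 fold change of -4.11 ± 0.31 (edgeR adjusted p = 5.0e-06). Zfp324 had 0.583, 0.419, 0.779 and 0.634 CPM in CLP, against 6.57, 9.87, 10.8 and 10.3 CPM in Sham, a log2 fold change of -3.94 ± 0.26 (edgeR adjusted p = 2.6e-06). The next in rank were Zfp93 (-3.90), Zfp937 (-3.69), Zfp773 (-3.58), Zfp14 (-3.55) and Zfp763 (-3.54). The absence of overlap between the groups was a condition for naming these 8. Zfp93 had no counts in CLP replicate 3, and it and Zfp937 share 20.7% and 31.5% of their windows with other genes, so their values are uncertain. The roles of these 8 proteins beyond the KRAB pattern are not described here.

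One of the most abundant members also fell. Zfp710, a C2H2 protein without a KRAB pattern, had 40.6, 17.5, 18.4 and 21.9 CPM in CLP, against 154, 198, 291 and 157 CPM in Sham, a log2 fold change of -3.02 ± 0.31 (edgeR adjusted p = 2.5e-05). Per kilobase of transcript it was the most abundant of the 5 most-read members in Sham, at 34.0 CPM per kb, with Zfp217 at 32.8 and Zfp106 at 32.4 CPM per kb, and in CLP it stood at 4.19 CPM per kb. Zfp652 had 124, 84.2, 75.1 and 78.8 CPM in CLP and 134, 150, 131 and 160 CPM in Sham, a log2 fold change of -0.66 ± 0.16 (edgeR adjusted p = 0.0053). Zfp106, an RNA-binding protein of neuromuscular function in mice, was the most-read member in Sham and was not called, with 376, 301, 243 and 267 CPM in CLP and 302, 311, 247 and 319 CPM in Sham.

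The members called higher were fewer and included several of the most-read transcripts. Zfp703, a NET-family corepressor whose human counterpart is an oncogene of luminal breast cancer, had 508, 702, 436 and 606 CPM in CLP, against 60.8, 67.7, 71.5 and 52.1 CPM in Sham. Every CLP library was above every Sham library several-fold, at a log2 fold change of 3.16 ± 0.18 (edgeR adjusted p = 1.3e-06). No match to the C2H2 pattern was found in its coding sequence. Per kilobase it reached 179 CPM per kb in CLP and 19.99 CPM per kb in Sham.

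Zfp655, whose human counterpart binds the signalling protein VAV1, had 160, 291, 234 and 282 CPM in CLP and 42.6, 44.9, 41.8 and 38.6 CPM in Sham, a log2 fold change of 2.53 ± 0.18 (edgeR adjusted p = 4.0e-06). Zfp516, a regulator of brown fat genes in mice, had 339, 366, 228 and 317 CPM in CLP and 69.4, 47.6, 63.6 and 43.3 CPM in Sham, a log2 fold change of 2.48 ± 0.20 (edgeR adjusted p = 6.2e-06). In both, every CLP library lay above every Sham library. Zfp811, a KRAB zinc finger gene, had 39.7, 115, 130 and 121 CPM in CLP and 21.6, 16.9, 4.36 and 4.64 CPM in Sham. Its log2 fold change was 3.09 ± 0.56 (edgeR adjusted p = 9.4e-04). Its groups did not overlap, but CLP replicate 1 was the low one of its group, and Sham replicates 1 and 2 were well above Sham replicates 3 and 4. Zfp382, whose human counterpart is a KRAB repressor, had 4.87, 16.6, 11.5 and 24.1 CPM in CLP and 3.12, 3.11, 3.08 and 2.75 CPM in Sham, a log2 fold change of 2.24 ± 0.39 (edgeR adjusted p = 7.6e-04), again with CLP replicate 1 lowest. Without CLP replicate 1, the log2 fold changes were 3.36 for Zfp811 and 2.53 for Zfp382, and both remained called higher.

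**Figure D2:**
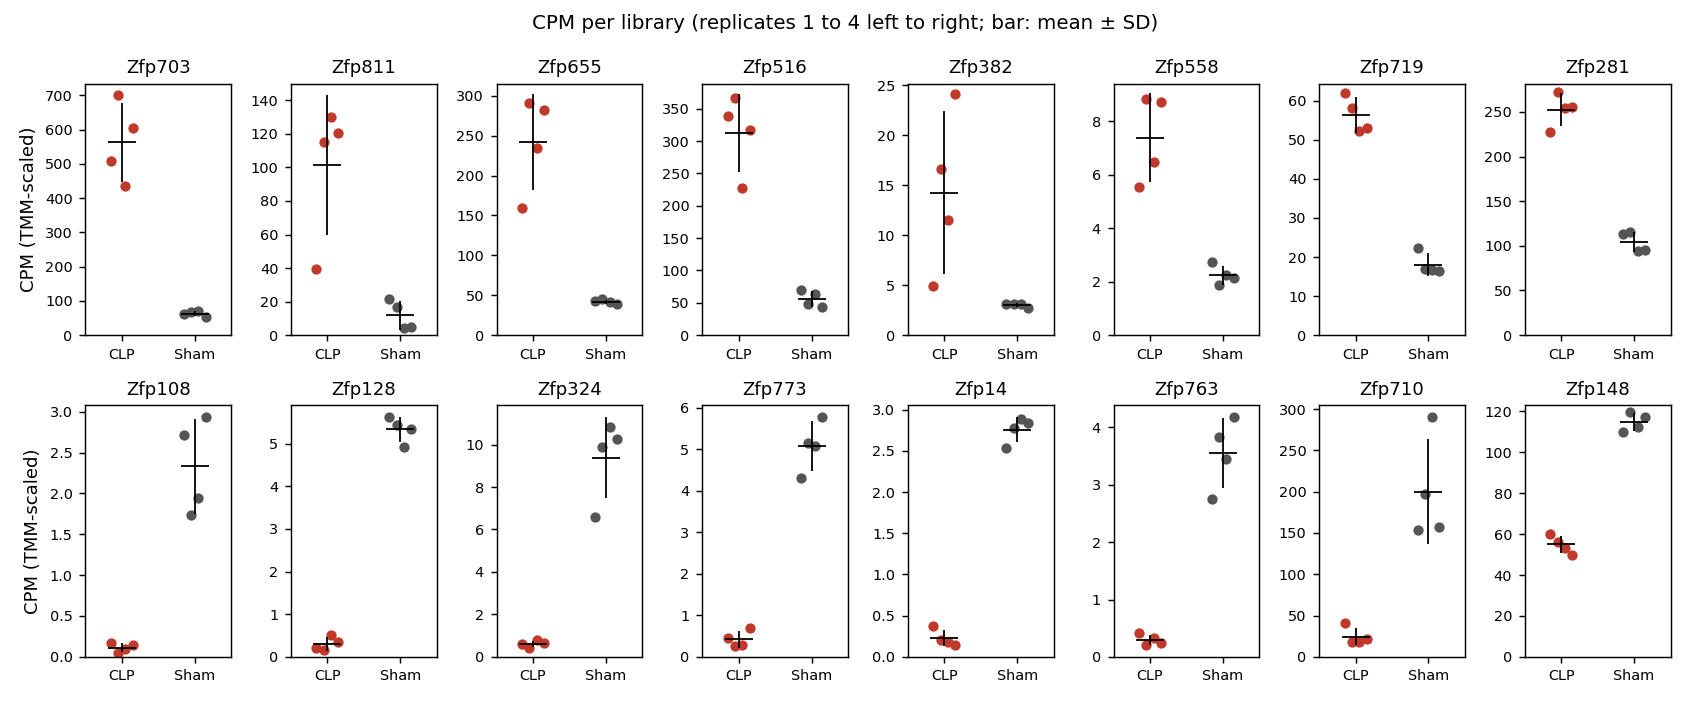
CPM per library for 8 members called higher (upper row) and 8 called lower (lower row), each panel with its own linear axis from 0, CLP in red and Sham in grey, with the group mean ± SD (n = 4 each) as the bar. The lower row shows 6 members named for having no overlap between the groups, with Zfp710 and Zfp148 beside them; Zfp811 and Zfp382 show CLP replicate 1 as the lowest CLP point.

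Further members that rose by more than 1 on the log2 scale, with under 1% of their windows shared with other genes, were Zfp558 (1.72), Zfp719 (1.64), Zfp52 (1.58), Zfp263 (1.56), Zfp800 (1.31) and Zfp281 (1.27). Zfp281, a GC-box-binding factor of pluripotent cells in mice, had 228, 273, 254 and 256 CPM in CLP and 113, 115, 94.4 and 95.7 CPM in Sham, a log2 fold change of 1.27 ± 0.11 (edgeR adjusted p = 1.1e-05). Zfp719, a KRAB member, had 62.1, 58.2, 52.3 and 52.9 CPM in CLP and 22.3, 16.9, 16.6 and 16.4 CPM in Sham. Zfp52, another KRAB member, had 19.8, 33.2, 39.99 and 41.1 CPM in CLP and 10.4, 11.03, 12.1 and 11.4 CPM in Sham, and CLP replicate 1 was again the lowest of its group. Zfp800 had 74.2, 111, 97.1 and 88.0 CPM in CLP and 41.0, 36.4, 41.0 and 31.4 CPM in Sham. Zfp558 was read far less, with 5.54, 8.85, 6.46 and 8.73 CPM in CLP and 2.72, 1.86, 2.25 and 2.14 CPM in Sham. Zfp263, a SCAN-domain factor, had 196, 212, 266 and 272 CPM in CLP and 107, 72.4, 74.0 and 66.8 CPM in Sham. In each of these members every CLP library was above every Sham library. Zfp366, known as DC-SCRIPT in dendritic cells, had 36.4, 112, 164 and 123 CPM in CLP and 32.6, 52.5, 45.7 and 46.3 CPM in Sham, a log2 fold change of 1.30 ± 0.36 (edgeR adjusted p = 0.011), and its groups overlapped through CLP replicate 1. Without that library, Zfp366 had a log2 fold change of 1.59 and was called higher. Zfp97 (1.21) shares 83.1% of its windows with other genes, with Zfp960 as the closest, and its reads cannot be assigned to it alone.

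Of the smaller rises, the most read were Zfp871, a KRAB member, and Zfp217, whose human counterpart is an oncogene that works with LSD1 and CoREST. Zfp871 had 250, 368, 341 and 372 CPM in CLP and 232, 194, 194 and 184 CPM in Sham (0.73). Zfp217 had 339, 307, 278 and 245 CPM in CLP and 227, 187, 177 and 154 CPM in Sham (0.65). The rest were Zfp456 (0.93), Zfp1 (0.93), Zfp429 (0.74), Zfp948 (0.73), Zfp593 (0.72), Zfp408 (0.70), Zfp715 (0.61), Zfp821 (0.60), Zfp422 (0.52), Zfp330 (0.51), Zfp639 (0.50), Zfp869 (0.46), Zfp62 (0.44), Zfp91 (0.30) and Zfp513 (0.27), of which Zfp429 (26.1%), Zfp330 (19.1%), Zfp456 (16.5%), Zfp869 (9.35%) and Zfp422 (7.52%) share more than 5% of their windows with other genes. The groups overlapped in 4 risers, namely Zfp366, Zfp422, Zfp408 and Zfp948. The call of several small rises rested on single libraries. It was lost for Zfp91 without Sham replicate 2 (0.30) or 4 (0.29), and for Zfp408 without CLP replicate 4 (0.55). It was lost for Zfp948 without CLP replicate 3 (0.64), CLP replicate 4 (0.69), Sham replicate 1 (0.66) or Sham replicate 2 (0.63). Zfp422 lost it in 5 of the 8 fits that left out a library (0.45 to 0.50), and Zfp513 in 7 of 8 (0.24 to 0.30). Zfp91, a ubiquitin ligase of the noncanonical NF-kB pathway, was 1.23-fold higher in CLP under TMM. With total counts, Zfp91 and Zfp513 were called lower, at -0.26 and -0.28, and 7 of the 30 risers had a negative log2 fold change. The 13 that stayed higher with total counts were Zfp703, Zfp811, Zfp655, Zfp516, Zfp382, Zfp558, Zfp719, Zfp52, Zfp263, Zfp800, Zfp281, Zfp97 and Zfp456.

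The summed CPM of the members depended on the scaling. TMM-scaled, they summed to 5669, 6538, 6247 and 6536 CPM in CLP and to 6009, 6069, 6269 and 5930 CPM in Sham, which overlap, at 6247 ± 409 and 6069 ± 145 CPM (SD, n = 4 each). The 188 members called lower summed to 1552 ± 69.8 CPM in CLP, against 3276 ± 141 CPM in Sham. The 30 called higher summed to 3179 ± 351 CPM in CLP, against 1237 ± 108 CPM in Sham, and the 56 not called to 1516 ± 70.7 CPM in CLP, against 1557 ± 29.7 CPM in Sham. These splits follow the calls and are a description only. Zfp703 alone made up 9.01% of the CLP sum and 1.04% of the Sham sum, and Zfp703, Zfp871, Zfp516, Zfp106 and Zfp217 together made up 28.8% and 13.2% of them. As a share of all counts, the members took 0.515% in CLP libraries and 0.736% in Sham libraries, so that the CLP share was 0.70 times the Sham share.

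**Figure D3:**
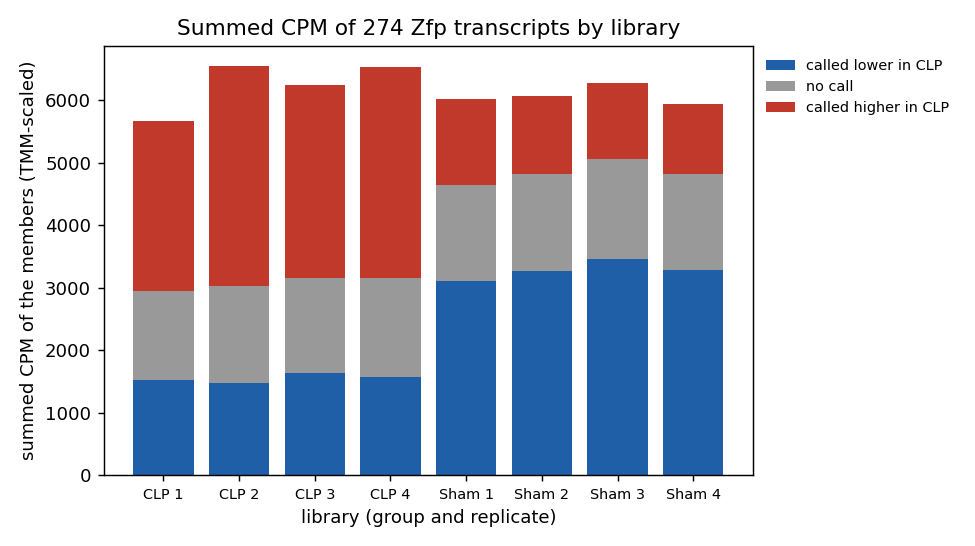
Summed TMM-scaled CPM of the 274 members in each of the 8 libraries, stacked by the call of the member, with CLP libraries at the left and Sham libraries at the right. The full bars are of similar height in both groups, the blue part (lower in CLP) is smaller in CLP, and the red part (higher in CLP) is larger.

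The size of the fall went with the Sham level of the member. The members were split into 3 groups of nearly equal size by Sham CPM. Among the 91 members with the lowest levels (1.97 to 6.89 CPM) the median log2 fold change was -1.88, with 73 called lower and 6 higher. In the middle group it was -0.84, with 65 lower and 9 higher, and among the 92 members with the highest levels it was -0.43, with 50 lower and 15 higher. All genes of the same Sham count minimum in the same Sham ranges had medians of -0.35, -0.35 and 0.05, from 2266, 2634 and 5893 genes. Of these genes, 37.5%, 44.5% and 28.1% were called lower and 15.7%, 15.5% and 31.1% higher. Spearman's rho between log2 fold change and Sham CPM was 0.46 across the 274 members, which share libraries and are not independent, and the Sham values enter both measures. For transcript GC content rho was 0.09, for transcript length 0.01 and for the number of fingers -0.18.

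Members also differed by protein features, which their selection did not use. A KRAB pattern was found in 155 members, of which 114 were called lower and 13 higher, with a median log2 fold change of -1.23. Of the 117 coding members without the pattern, 72 were lower and 17 higher, with a median of -0.58. KRAB members made up 67 of the 91 members with the lowest Sham CPM and 29 of the 92 with the highest. Within these 3 groups by Sham CPM, from low to high, the medians of members with and without KRAB were -1.95 and -1.58, then -0.91 and -0.68, then -0.59 and -0.35. In the same order, the shares called lower were 79.1% and 81.8%, then 74.6% and 65.6%, then 58.6% and 52.4%. The pattern search can miss diverged KRAB boxes. By number of fingers there was no steady order: the median was -0.46 in the 21 members with fewer than 3 fingers, -0.84 in the 35 with 3 to 6, -0.60 in the 75 with 7 to 10, -1.29 in the 94 with 11 to 15 and -0.79 in the 47 with 16 or more. The 3 members with a SCAN pattern had a median of 0.41. Members under 5% of shared windows had a median of -0.91, with 148 of 212 lower and 24 higher. The 62 members above that share had a median of -0.77.

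**Figure D4:**
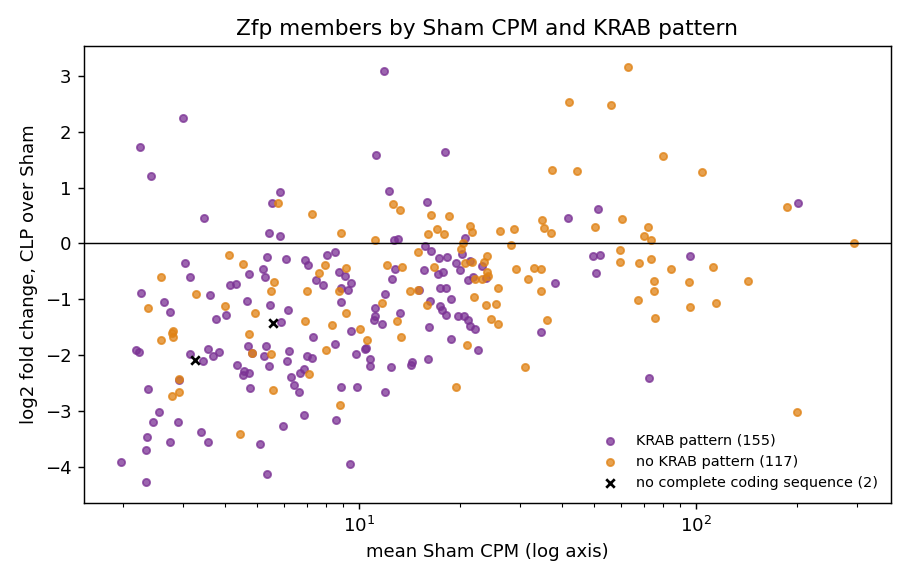
Log2 fold change, CLP over Sham, of each member against its mean Sham CPM on a log axis, with members with a KRAB pattern in purple (155) and without it in orange (117). Points below 0 predominate at low Sham CPM, and the KRAB members crowd the low end.

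Other zinc finger families differed in their counts. Of 19 tested Zkscan and Zscan genes, 15 were called lower and 1 higher, with a median log2 fold change of -1.71. The 53 other genes with a KRAB pattern and at least 3 fingers had a median of -1.24, with 35 lower and 4 higher. Of 33 Zbtb genes, 18 were lower and 5 higher (median -0.69). Genes with at least 3 fingers but no KRAB pattern and another kind of symbol numbered 144, with 62 lower, 36 higher and a median of -0.29. These sets overlap, since the 144 also hold many of the Zbtb, Zkscan and Zscan genes, and the 53 hold Zkscan5. Some of the 144 may carry a KRAB box that the pattern search missed. Of 21 Zc3h genes and Zfp36 relatives, 7 were lower and 8 higher, with a median of -0.01. Zfp36 itself, which destabilises cytokine mRNAs, had 1003, 1063, 753 and 927 CPM in CLP and 310, 315, 245 and 253 CPM in Sham, a log2 fold change of 1.74 ± 0.15 (edgeR adjusted p = 8.5e-06).

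Genes on a list of KRAB corepressors and other chromatin regulators were more often lower than higher. Of 29 genes on that list, 16 were called lower and 3 higher (29.5% and 24.9% of all genes tested), with a median of -0.63. Setdb1 had 32.1, 29.1, 37.3 and 33.6 CPM in CLP, against 81.0, 91.5, 95.0 and 103.7 CPM in Sham, a log2 fold change of -1.49 ± 0.12 (edgeR adjusted p = 5.4e-06). Trim28 had 65.9, 46.8, 44.3 and 39.1 CPM in CLP and 82.1, 75.2, 73.5 and 81.5 CPM in Sham, a log2 fold change of -0.67 ± 0.15 (edgeR adjusted p = 0.0035). The histone methyltransferase gene Ehmt1 (-1.32), the DNA methyltransferase gene Dnmt3a (-1.25) and the HUSH-associated Morc2a (-0.70) were also called lower, while Chd4 (0.70), Pphln1 (0.60) and Suv39h2 (1.22) were called higher. Under total-count scaling those 3 were 0.15, 0.05 and 0.67 and were not called.

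Members with better-known roles were mixed. Zfp148, a GC-box-binding factor, had 60.1, 56.4, 53.3 and 49.98 CPM in CLP and 110, 119, 112 and 117 CPM in Sham, a log2 fold change of -1.06 ± 0.10 (edgeR adjusted p = 1.2e-05). Zfp292 (-1.33), Zfp532 (-0.84), the spindle protein gene Zfp207 (-0.69), Zfp638, which silences unintegrated retroviral DNA in human cells (-0.42), and Zfp687 (-0.35) were called lower. Zfp932 (-1.28) was called lower too but shares 55.5% of its windows with other genes. Zfp207 had 44.9, 55.0, 66.2 and 71.5 CPM in CLP and 88.1, 91.7, 111 and 90.8 CPM in Sham, and Zfp292 had 24.4, 27.8, 38.5 and 29.8 CPM in CLP and 73.6, 72.8, 78.7 and 77.4 CPM in Sham, with no overlap in either. Zfp592 (-0.27), the imprint regulator Zfp445 (-0.22), Zfp809, which silences proviral DNA (-0.21), Zfp568, which represses a placental Igf2 promoter (-0.19), and Zfp410, an activator of Chd4 (-0.10), were not called. Zfp335 (-0.03), Zfp384 (0.06), the ribosome-collision sensor Zfp598 (0.19), the promoter-binding factor Zfp143 (0.27) and Zfp326 of the DBIRD complex (0.31) were not called either. Zfp809 had 44.2, 44.2, 48.6 and 42.6 CPM in CLP and 56.2, 57.6, 39.4 and 54.7 CPM in Sham, where Sham replicate 3 was below all CLP libraries. Zfp445 had 66.2, 79.4, 87.8 and 95.0 CPM in CLP and 96.7, 93.5, 101 and 92.2 CPM in Sham, overlapping through CLP replicate 4. Leaving out a library ended the call of Zfp638 (-0.41 without CLP replicate 4, -0.32 without Sham replicate 3) and of Zfp687 (-0.34 without Sham replicate 2, -0.33 without Sham replicate 4). It brought calls for Zfp143 (0.39) and Zfp326 (0.44) without CLP replicate 1, and for Zfp809 (-0.32) and Zfp598 (0.28) without Sham replicate 3. Zfp57 and Zfp708 were under the count minimum.

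By location, chromosome 7 held 70 members, of which 57 were called lower and 3 higher, with a median of -1.26. Over all genes tested, on any chromosome, 29.5% were called lower and 24.9% higher. On chromosome 17, 27 of 37 were lower and 5 higher (median -0.86), on chromosome 13 it was 12 of 25 lower and 3 higher (median -0.51), and on chromosome 8 it was 12 of 19 lower and 5 higher (median -0.63). Runs of 4 or more members with gaps of at most 500 kb, in the gene order of GENCODE M21 (GRCm38), numbered 15 and held 124 members. In the chromosome 7 run of Zfp180, Zfp235, Zfp111, Zfp109, Zfp108, Zfp93, Zfp61 and Zfp94, 8 of 8 were lower, at a median of -3.17 and a range of -4.27 to -0.58. Within it, Zfp180 fell least, with 15.2, 15.4, 16.2 and 18.1 CPM in CLP and 23.7, 23.8, 24.4 and 24.7 CPM in Sham. Its neighbour Zfp235 had 1.17, 0.314, 1.01 and 0.731 CPM in CLP and 6.60, 5.94, 7.48 and 7.42 CPM in Sham, and Zfp109 had 0.999, 0.471, 0.458 and 0.488 CPM in CLP and 6.17, 5.73, 6.07 and 5.77 CPM in Sham. No CLP value of these members reached a Sham value. Zfp111 lay between them and Zfp180, with 6.78, 5.18, 6.14 and 4.93 CPM in CLP and 19.6, 17.0, 18.2 and 20.3 CPM in Sham. Zfp61 had 1.37, 0.681, 1.15 and 0.536 CPM in CLP and 3.97, 4.33, 5.26 and 5.26 CPM in Sham. Some other chromosome 7 runs were also lower throughout. They were the 7 members from Zfp551 to Zfp446 (median -1.67), the 5 from Zfp60 to Zfp850 (median -2.34) and the 4 from Zfp954 to Zfp772 (median -2.05). Only part was called lower in the chromosome 7 runs that start with Zfp628 (3 of 4), Zfp787 (4 of 5) and Zfp553 (7 of 10). On chromosome 6, the 7 members from Zfp398 to Zfp467 were likewise all called lower (median -1.29). In the chromosome 17 run that starts with Zfp871 and Zfp811, those 2 were higher and the other 9 were lower. In the other chromosome 17 run, of 21 members, 16 were lower, and Zfp52 and Zfp948 were higher. In the chromosome 7 run of 11 that starts with Zfp84, 8 were lower and Zfp382 was higher. In the chromosome 13 run of 16, Zfp456 and Zfp429 were higher and 6 were lower. Members of a run share sequence and position and are not independent.

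**Figure D5:**
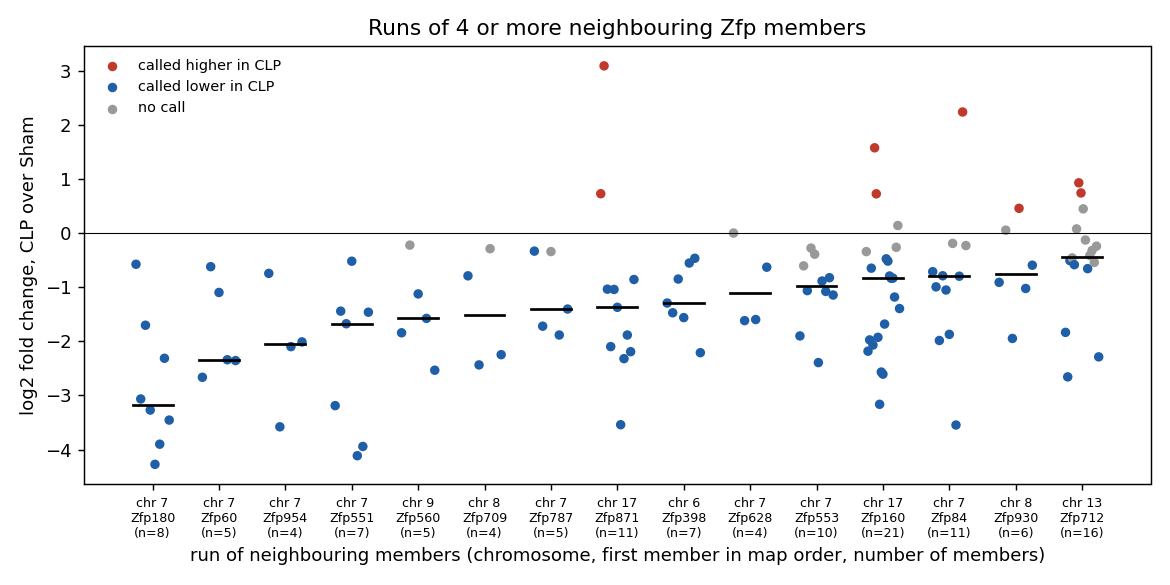
Log2 fold change, CLP over Sham, of members in 15 runs of neighbouring Zfp genes, ordered by median (black bar), each column labelled with the chromosome, the first member in map order and the number of members. The chromosome 7 run at the left lies wholly below 0, while Zfp871 and Zfp811 stand above 0 in a run whose other 9 members lie below it.

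The promoter windows of 230 members (280 windows) were searched against all 32851 windows of 300 bases. Those belong to 27025 genes, more than were tested here, so members are not set beside windows of tested genes only. The Sp1 box was in 45.7% of member windows and 35.7% of all windows, the ETS box in 21.1% and 8.86%, and the NRF1 site in 8.57% and 4.60%. The TATA box was less frequent, in 5.71% of member windows and 13.6% of all, and the NF-kB site was in 9.29% and 8.46%. The AP-1 site was in 3.57% and 5.20%, the cAMP response element in 3.21% and 1.79%, and the E-box in 6.07% and 7.15%. The ZNF143-type element, present in the windows of Zfp108 and Zfp128 and chosen after they had been seen, was in 8.93% of member windows (25 of 280) and 1.03% of all windows. The median number of CpG per window was 15 in members and 7 in all windows. A match in these letters is not evidence that a factor binds there.

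At the edge of the count minimum, Zfp239 (lowest Sham count 51) had a log2 fold change of -1.73 and Zfp771 had -0.61 (edgeR adjusted p = 0.074). Just outside it, Zfp783 (lowest Sham count 44) had -0.99 and Zfp808 (lowest Sham count 40) had -2.24. Zfp771 was called lower without Sham replicate 4 (-0.76), and the call of Zfp783 was lost without CLP replicate 2 (-0.83) or Sham replicate 3 (-0.71). Of the transcripts under the minimum 29 were tested, with 15 called lower and 3 higher, and these 3 are named after their values were seen. Zfp459 had 187, 435, 347 and 251 counts in CLP, against 8, 5, 9 and 6 in Sham, which are 7.78, 22.8, 15.9 and 12.2 CPM in CLP and 0.244, 0.152, 0.302 and 0.183 CPM in Sham. Its log2 fold change of 6.03 ± 0.40 (edgeR adjusted p = 3.2e-06) was above that of every member, and its few Sham counts kept it out of the set. Zfp831 had 2.62 ± 0.40 (edgeR adjusted p = 3.0e-04) and Zfp473 had 1.21 ± 0.43 (edgeR adjusted p = 0.034), a call that was lost in 4 of the 8 fits that left out a library (0.89 to 1.16), namely without CLP replicate 3 or 4 or Sham replicate 2 or 3, and with total counts (0.66). With no count minimum, 303 transcripts were tested, 203 lower and 33 higher (29.5% and 24.9% of all genes tested). With a mean of at least 50 counts over all 8 libraries, which reads both groups, 174 of 261 were lower and 31 higher. With at least 50 counts in each CLP library, a rule that favours the opposite direction, 95 of 178 were lower and 31 higher. Shares over all genes under the mean rule and the CLP rule are not given here, so nothing is read from those counts.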

How the data were processed

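Libraries of sorted Kupffer cells, 4 after CLP and 4 after sham surgery, were compared. RNA was extracted by the Aurum kit, and TruSeq stranded libraries were read on an Element AVITI, per the labels' protocols. The authors deposited 1 table of whole read counts per Ensembl gene; FastQC, STAR 2.7.10b, featureCounts, DESeq2 and the mm39 assembly are named, per the submitters' processing notes. The sources used here give neither the strand setting nor the annotation release, so reads of overlapping and antisense genes cannot be told apart. Symbols and coding sequences came from GENCODE M21 (GRCm38), with no coordinates printed from it, and promoters from the RefSeq table of GRCm38.p6.

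A robust quasi-likelihood F-test of edgeR 4.0.16 (R 4.3.3), with surgery as its single term, was run on the counts after filterByExpr and TMM scaling. P-values were adjusted by Benjamini-Hochberg over 14655 genes, with a threshold of 0.05. The SE is the absolute log2 fold change over the square root of F. CPM values are TMM-scaled. Fingers were found in translated coding sequences as C, 2 to 4 residues, C, 12 residues, H, 3 to 5 residues, H. Shared sequence is the share of a transcript's 50-base windows found in another gene. Alternatives used DESeq2 1.42.0, limma 3.58.1 (voom), DESeq2 size factors, total-count scaling, no filter, a GC correction, a replicate block, other count minimums and leaving out each library. Setting members beside genes of the same Sham minimum, the limit on shared windows and member counts without CLP replicate 1 were chosen after seeing the data. The fits were tested on simulated data in which few genes changed. There edgeR recovered 10 of 50 planted 1.5-fold changes, 26 of 50 2-fold, 48 of 50 4-fold and 50 of 50 8-fold changes. Of its 147 calls, 13 were false. Small changes were thus often missed. The members, the lists and the named genes were chosen with earlier results of these data known. Named were up to 15 members called higher, by adjusted p, the 8 most negative without overlap, the 5 most-read in Sham, those at the count minimum, a list of known roles and 5 corepressors. The other members called higher are named as exceptions to the general direction, and the other corepressors called higher, the members of runs and 3 transcripts under the minimum were named after their values were seen.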

Additional observations from a re-analysis of the deposited data

Results flagged for a closer look

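In 13 of 162 groups of 4 values looked at, 1 library lay far from the other 3 by Dixon's criterion, which chance alone gives in about 1 in 20 groups. On CLP replicate 1, Zfp811 was 39.7 CPM against 115 to 130 CPM in the other CLP libraries, Zfp109 was 0.999 CPM against 0.458 to 0.488 CPM, and Zfp239 was 1.41 CPM against 0.488 to 0.641 CPM. On Sham replicate 1, Zfp719 was 22.3 CPM (others 16.4 to 16.9), Zfp91 was 77.7 CPM (69.7 to 70.5) and Morc2a was 54.4 CPM (63.6 to 64.4). On Sham replicate 2, Zfp239 was 1.55 CPM (2.85 to 3.02). On Sham replicate 3, Zfp456 was 11.4 CPM (12.6 to 12.7), Zfp809 was 39.4 CPM (54.7 to 57.6), Zfp207 was 111 CPM (88.1 to 91.7), Zfp326 was 26.7 CPM (19.0 to 20.2) and Zfp410 was 22.5 CPM (19.1 to 19.3). On Sham replicate 4, Zfp382 was 2.75 CPM (3.08 to 3.12).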

How the results depend on the processing

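Total-count scaling called 8292 genes lower and 1715 higher, and among the members it called 13 higher. The member median was then -1.40 on the log2 scale, and the member sums were 5149 CPM in CLP libraries and 7356 CPM in Sham libraries. A minimum of 200 counts in each Sham library left 175 members, 109 lower, with a median of -0.59. At least 50 counts in each CLP library left 178, 95 lower, with a median of -0.45. Shares over all genes under these minimums are not given here. Leaving out 1 library at a time gave 177 to 189 members lower and 26 to 38 higher, with medians of -0.90 to -0.84. Without CLP replicate 1, 33.1% of all genes then tested were called lower and 28.0% higher. Shares over all genes without each other library are not given here, so nothing is read from those counts. The direction of a few small values turned. Zfp106 was -0.00189 with limma voom, -0.00179 with the replicate block, -0.54 with total counts and -0.0435 with no filter, and it ranged from -0.12 to 0.10 when single libraries were left out (negative without CLP replicate 1, at -0.12, and without Sham replicate 3, at -0.0637). Zfp335 was 0.033 with DESeq2 and 0.033 with its size factors and 0.17 with the GC correction, and ranged from -0.094 to 0.12 without single libraries (positive without CLP replicate 1, at 0.079, and without Sham replicate 3, at 0.12). Zfp410 ranged from -0.19 to 0.063 (positive without CLP replicate 1). With total counts, Zfp91 was -0.26, Zfp143 -0.29, Zfp598 -0.37, Zfp326 -0.25, Zfp384 -0.50, Zfp513 -0.28, Zfp62 -0.117, Zfp869 -0.0944, Zfp639 -0.0552, Zfp330 -0.0476 and Zfp422 -0.029. The cause was not tested. Of 1200 values of 80 named genes under alternatives, 1115 kept direction and call, 49 lost the call, 13 gained one and 23 turned.

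Same-numbered libraries of both groups deviated together at r = -0.12 to 0.17 over 4 pairs. Libraries with different numbers gave r = -0.41 to 0.33 over 12 pairs, a wider range, so these values cannot tell whether the numbers pair the samples. With the number as a replicate block, 185 members were lower and 29 higher, and of the named genes Zfp513 (0.265) lost its call. The shares over all genes in that fit are not given here. Counts of 1 to 4 reads limit the precision of the lowest members in CLP.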
